A study of Mus musculus with 30 samples.

Results

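The 10 genes described here switch off mitogen-activated protein kinase (MAPK) signaling and were measured in mouse gastrocnemius muscle: the dual-specificity phosphatases Dusp1, Dusp4, Dusp5, Dusp6, Dusp8, Dusp10 and Dusp16 and the feedback inhibitors Spry1, Spry2 and Spred1. They were chosen by gene symbol, with earlier results of these data known, and are 10 of the 56951 symbols in the tables. The longest row with a mean over 20 reads was taken where a symbol had several. All but Dusp5, 9 in number, passed the filter on low values (mean reads over 20, mean FPKM over 0.5) and were among the 12030 genes tested.

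RNA of the gastrocnemius, collected together with the plantaris, was sequenced from 14 mice of the LD group and 16 of the ADV group, 1 library per mouse, as poly(A)-enriched RNA. All were wild-type male C57BL/6J mice kept singly with a running wheel, 14 weeks old at the start. LD mice spent 64 weeks under a fixed light period from 8:00 to 20:00. In ADV mice that period was moved forward by 8 h every 4 days for the same 64 weeks, a model of chronic jet lag. The LD group began with as many mice as the ADV group, and those lost to injury or death are missing from it. Wheel running was not analysed here, and schedule and activity cannot be told apart. Tissue was taken at different hours of the light period, at a time when ADV mice had the same light period as LD mice. The hour for each mouse is not in the labels and was not used here.

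MAPK cascades carry signals from growth factor receptors, stretch and stress to the nucleus through the kinases ERK, JNK and p38. MAPK phosphatases remove phosphate from the threonine and tyrosine that activate these kinases, and several of them are transcribed in response to the same signal, which makes them negative feedback genes. Sprouty and Spred proteins act further upstream, where they dampen the activation of Ras and Raf by receptor tyrosine kinases. Fos, an immediate early gene that ERK and other kinases switch on within minutes, served as a measure of recent signaling in each muscle.

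Between 18875468.5 and 28512674 read pairs per library fell on exons. Of the reads that Homer, the counting program, took as a library's total, 90.9 to 91.3% fell on exons in the LD group and 91.1 to 92.7% in the ADV group. Of 8 markers of the muscle fiber, 0 were called by edgeR's quasi-likelihood test, by DESeq2 or by limma (2 with an unadjusted p under 0.05 in edgeR), and their summed level was 60152 to 80277 FPKM in LD and 60794 to 80800 FPKM in ADV. Clock genes differed, with 3 of 5 genes that peak with Bmal1 higher and 7 of 8 genes of the opposite phase lower in the ADV group by edgeR's test. A clock score, the mean log2 level of the former minus that of the latter, ran from -2.82 to 0.04 in LD (median -1.45) and from -1.46 to 0.69 in ADV (median -0.06). The libraries of LD mouse 23 and ADV mice 24 and 34 resembled the others least. The main test was edgeR's quasi-likelihood test over 12030 genes, and a gene was called with an FDR (Benjamini-Hochberg) under 0.05. Fold changes are ADV over LD on the log2 scale. FPKM, fragments per kilobase of exon and scaled to sequencing depth, is a level per length and can be compared between genes. In whole muscle, fewer cells of a type and less RNA per cell cannot be told apart.

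The level per length spanned a wide range across the 10 genes. Averaged over the 30 libraries, Dusp1 was the most abundant at 26.2 FPKM. It was followed by Dusp8 at 11.3 FPKM, Dusp10 at 8.42 FPKM, Spry1 at 7.19 FPKM, Dusp16 at 5.23 FPKM, Spry2 at 4.30 FPKM and Dusp6 at 3.52 FPKM. Spred1 was at 1.25 FPKM, Dusp4 at 0.615 FPKM and Dusp5 at 0.283 FPKM. Within the LD group the ranges of neighbours in this order overlapped, except for Spry1 against Dusp16, Dusp6 against Spred1 and Dusp4 against Dusp5. Within the ADV group the ranges of Dusp1 and Dusp8, and those of Dusp6 and Spred1, stayed apart.

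**Figure D1:**
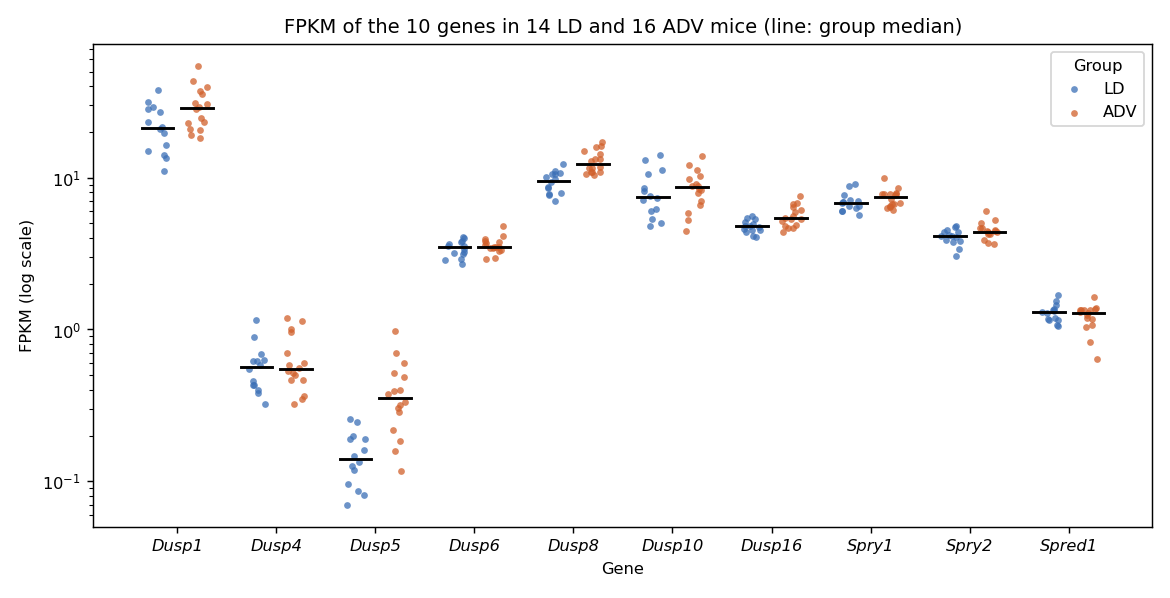
FPKM of the 10 genes (vertical axis, log scale) in each of 14 LD mice (blue) and 16 ADV mice (orange), with a line at the group median. The ADV points of Dusp5 and Dusp8 sit mostly above the LD points, while those of Dusp4, Dusp6 and Spred1 overlap the LD points over most of their range.

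With an FDR under 0.05, edgeR's quasi-likelihood test called 10.9% of the 12030 genes in either direction and 5.74% as higher in ADV. Of the 9 members tested it called 2, Dusp8 and Dusp16, both higher in the ADV group. With the additional limit of a 1.3-fold change, which the study's own definition of a differentially expressed gene uses, 2.09% of all genes and only Dusp8 among the members passed. Of the 9 members tested, 8 had a positive log2 fold change, against 51.0% of all genes tested, and their median was 0.12 against 0.00. An unadjusted p under 0.05 was found for 3 of the 9, the third being Dusp1, and for 3615 of all 12030 genes, a similar share. The members were chosen with earlier results of these data known, so these counts do not test an enrichment.

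**Figure D2:**
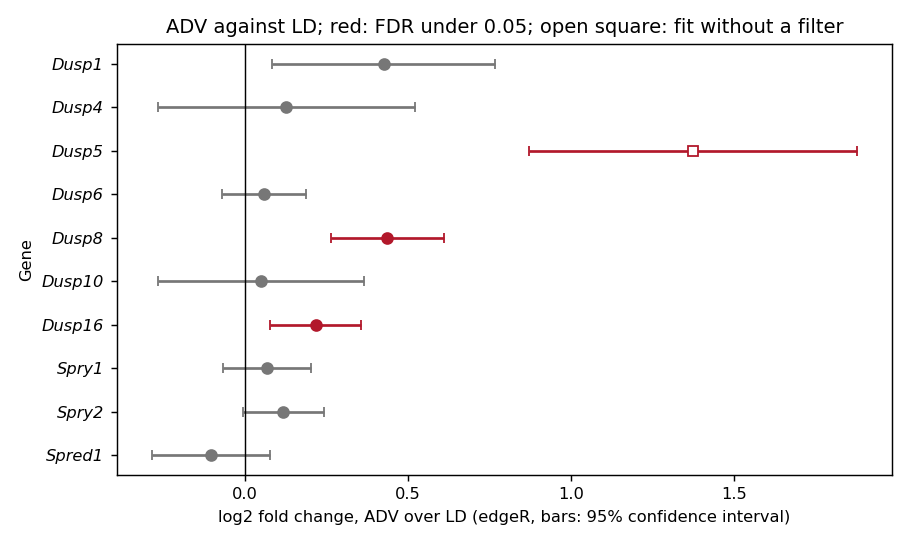
Log2 fold change of ADV over LD for each of the 10 genes, with its 95% confidence interval from edgeR. Red marks an FDR under 0.05, and the open square of Dusp5 comes from the fit without a filter on low values. The intervals of Dusp8 (0.26 to 0.61) and Dusp16 (0.08 to 0.36) lie above 0, as does that of Dusp1 (0.08 to 0.77), which did not pass the FDR.

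The inducible nuclear phosphatases come first. Dusp1 (also MKP-1), which acts on p38, JNK and ERK, lies on chromosome 17 (GRCm39, chr17:26724564-26727493, minus strand, 4 exons). Dusp1 ran from 11.04 to 37.5 FPKM in the LD group (median 21.2) and from 18.3 to 54.4 FPKM in the ADV group (median 28.7). The groups overlapped widely, although 12 of 16 ADV mice stood above the LD median. The means were 22.04 ± 7.80 FPKM (SD, n = 14) and 29.9 ± 9.997 FPKM (n = 16). The log2 fold change of Dusp1 was 0.42 (standard error 0.17, edgeR FDR 0.0906), so Dusp1 did not pass. The mouse-to-mouse spread was large in both groups, with a coefficient of variation of 35.4% in LD and 33.4% in ADV. ADV mouse 24 held the highest value, and without it the edgeR FDR was 0.156, while without LD mouse 31, the highest of its group, it was 0.0492.

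Dusp4 (MKP-2), a nuclear phosphatase for ERK and JNK, lies on the plus strand of chromosome 8 (chr8:35274451-35287048, 4 exons). It was scarce, with a mean of 40.8 reads per library. Dusp4 was at 0.325 to 1.16 FPKM in LD (median 0.564) and 0.321 to 1.20 FPKM in ADV (median 0.548). The ranges coincided, and the log2 fold change of 0.13 had a 95% interval from -0.27 to 0.52 (edgeR FDR 0.691).

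Dusp5, a nuclear phosphatase specific for ERK, lies on the plus strand of chromosome 19 (chr19:53517540-53530862, 4 exons). It fell short of both limits of the filter, with a mean of 17.1 reads per library. Dusp5 counted 4 to 15 reads in LD mice (median 9) and 7 to 55.5 reads in ADV mice (median 21.5). Its level was 0.070 to 0.258 FPKM in LD (median 0.140) and 0.117 to 0.980 FPKM in ADV (median 0.354). Of the 16 ADV mice 12 exceeded the highest LD mouse, and 15 exceeded the LD median. The ADV mean was 2.65-fold the LD mean (0.398 ± 0.222 against 0.150 ± 0.0596 FPKM), with p = 6e-05 by a two-sided permutation test with 100000 resamples, whose smallest possible p was 2e-05. This ratio stayed between 2.40 and 2.81 when any 1 mouse was left out, with p at most 1.2e-04. In the edgeR fit without a filter, which called 1.85% of 33968 genes, the log2 fold change of Dusp5 was 1.37 (standard error 0.25, edgeR FDR 0.00238). The difference rests on few reads, and 22.4% of the Dusp5 exon sequence overlaps Gm50394, a gene of the other strand. The libraries were stranded, but the sources used here do not give the strand setting of the counting, and the part of reads from Gm50394 was not tested.

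Dusp6 (MKP-3), the cytoplasmic phosphatase that removes phosphate from ERK and a classic feedback target of FGF signaling, lies on the plus strand of chromosome 10 (chr10:99099093-99103350, 3 exons). Dusp6 was among the least variable members, with a coefficient of variation of 12.5% in each group. It ran from 2.70 to 4.05 FPKM in LD (median 3.47) and from 2.91 to 4.79 FPKM in ADV (median 3.49). The medians nearly coincided. The log2 fold change was 0.06, with a 95% interval of -0.07 to 0.19 that leaves room for only small changes (edgeR FDR 0.566). Gm34921 and Gm56965 of the other strand overlap 27.5% of its exon sequence.

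The phosphatases that prefer JNK and p38 held both called members. Dusp8, a phosphatase of JNK and p38 that is prominent in heart, brain and muscle, lies on the minus strand of chromosome 7 (chr7:141633227-141649009, 7 exons), with 1326 reads per library on average. It ran from 6.99 to 12.4 FPKM in LD (median 9.56) and from 10.4 to 17.1 FPKM in ADV (median 12.2). Every ADV mouse stood above the LD median, 8 of 16 stood above the highest LD mouse, and 9 of 14 LD mice stood below the lowest ADV mouse. The means were 9.44 ± 1.56 FPKM (SD, n = 14) and 12.9 ± 2.18 FPKM (n = 16). Dusp8 rose by 0.44 on the log2 scale (standard error 0.09, 1.35-fold, edgeR FDR 0.00254). It was called in 30 of the 30 fits that left out 1 mouse, with edgeR FDRs from 0.00188 to 0.00561. The highest LD value belonged to LD mouse 23, 1 of the 3 libraries least like the others, and without these 3 the log2 fold change was 0.45 (edgeR FDR 0.00503).

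Dusp16 (MKP-7), which acts on JNK and p38 in the cytoplasm, lies on the minus strand of chromosome 6 (chr6:134692436-134769588, 7 exons). Dusp16 was at 4.09 to 5.56 FPKM in LD (median 4.77) and at 4.41 to 7.60 FPKM in ADV (median 5.41). Of 16 ADV mice, 13 exceeded the LD median and 7 exceeded the highest LD mouse. The means were 4.78 ± 0.458 FPKM (SD, n = 14) and 5.62 ± 0.911 FPKM (n = 16), and the coefficient of variation was 9.57% in LD and 16.2% in ADV. Dusp16 rose by 0.22 on the log2 scale (standard error 0.07, 1.16-fold, edgeR FDR 0.0389). The call was close to the threshold: it was lost in 13 of the 30 fits that left out 1 mouse, with edgeR FDRs from 0.0506 to 0.0654. These were the fits without LD mice 27, 28, 30, 32, 33, 35 and 36 and without ADV mice 24, 25, 26, 29, 32 and 33, and their log2 fold changes were 0.18 to 0.22.

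Dusp10 (MKP-5), a phosphatase of p38 and JNK, lies on the plus strand of chromosome 1 (chr1:183766578-183807833, 4 exons). Dusp10 varied as much as Dusp1 between mice of the LD group, with a coefficient of variation of 35.8%. It ran from 4.82 to 14.1 FPKM in LD (median 7.44) and from 4.42 to 13.8 FPKM in ADV (median 8.63). The ranges coincided, and the log2 fold change was 0.05, with a 95% interval from -0.27 to 0.37 (edgeR FDR 0.858).

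Both calls were lost when the clock score or the share of reads on exons, which differed between the groups, was added to the fit. The part of these measures in the result was not tested. With the clock score as a covariate, edgeR gave a log2 fold change of 0.29 for Dusp8 (FDR 0.351) and of 0.12 for Dusp16 (FDR 0.644), and called 0 of all 12030 genes, 1395 having an unadjusted p under 0.05. With the share of reads on exons as a covariate, the edgeR values were 0.34 for Dusp8 (FDR 0.0933) and 0.28 for Dusp16 (FDR 0.0976), and 45 genes were called. Without a covariate the log2 fold changes were 0.44 for Dusp8 and 0.22 for Dusp16. The Dusp16 call was thus lost with the exon share although its log2 fold change was larger. Within groups, the slope on the clock score was called for 0.133% of the genes tested in edgeR and for 0 of the 9 members. The smallest unadjusted p among the members, 0.0697, belonged to Dusp10, which had a slope of -0.22 per unit of the score (standard error 0.12, edgeR FDR 0.574). Genes of the heat shock response also moved with the groups, with 8 of 11 called higher by edgeR and a median log2 fold change of 0.38. Their summed level was 785 to 1019 FPKM in LD and 840 to 1549 FPKM in ADV.

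Promoter sequences are shown for Dusp1, Dusp5 and Dusp8, which held motifs of factors that respond to kinase signaling, and for Dusp16, the other called member, which held none of them. Each is the 250 bases before the annotated start in GENCODE vM39, read from GRCm39 on the strand of the gene. Capitals mark matches, on either strand, to the cAMP response element (CRE) TGACGTCA, to its core TGACG, which lies within the full CRE, and to the CArG box that serum response factor binds. AP-1 sites (TGANTCA) were searched as well and were found in 0 of the 10 windows.
Dusp1, chr17:26727494-26727743, minus strand: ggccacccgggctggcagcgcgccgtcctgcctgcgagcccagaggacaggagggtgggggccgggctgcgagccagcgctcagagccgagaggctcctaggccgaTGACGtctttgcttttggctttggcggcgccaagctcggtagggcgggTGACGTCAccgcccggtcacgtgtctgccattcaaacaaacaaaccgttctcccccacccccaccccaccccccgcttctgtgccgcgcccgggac
Dusp5, chr19:53517282-53517531, plus strand: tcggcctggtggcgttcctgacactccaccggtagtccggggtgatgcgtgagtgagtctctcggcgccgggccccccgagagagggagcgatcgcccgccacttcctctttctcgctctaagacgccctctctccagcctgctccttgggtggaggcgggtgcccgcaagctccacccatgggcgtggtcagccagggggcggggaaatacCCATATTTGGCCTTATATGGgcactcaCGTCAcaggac
Dusp8, chr7:141649053-141649302, minus strand: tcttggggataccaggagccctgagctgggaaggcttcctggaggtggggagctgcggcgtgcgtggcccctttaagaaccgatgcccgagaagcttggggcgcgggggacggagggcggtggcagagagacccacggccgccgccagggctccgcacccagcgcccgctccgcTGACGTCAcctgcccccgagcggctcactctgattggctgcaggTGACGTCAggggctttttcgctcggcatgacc
Dusp16, chr6:134769699-134769948, minus strand: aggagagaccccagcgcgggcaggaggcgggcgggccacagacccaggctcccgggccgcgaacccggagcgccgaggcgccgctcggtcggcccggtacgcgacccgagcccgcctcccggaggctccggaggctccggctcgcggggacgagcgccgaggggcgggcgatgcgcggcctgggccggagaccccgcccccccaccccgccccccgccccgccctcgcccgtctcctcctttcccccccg

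The full CRE was present in 2.00% of the windows of 12012 genes and in 2 of the 10 members, Dusp1 and Dusp8. Dusp1 held it at positions -96 to -89, counted from the base before the start as -1, with a further core from -144 to -140. Dusp8 held 2 full CREs, at -76 to -69 and at -32 to -25. The core alone or within a CRE was in 23.4% of all windows and in 5 members (Dusp1, Dusp4, Dusp5, Dusp8 and Spry2). The CArG box was in 1.20% of all windows and in 1 member, Dusp5, which held 2 of them side by side, from -38 to -29 and from -28 to -19, followed by a core from -11 to -7, written there as its reverse complement. The E-box CACGTG, the motif of the clock factors, was in 7.72% of all windows and in Dusp1 alone of the members. These matches describe the letters of the windows.

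The feedback inhibitors of receptor signaling showed no called difference. Spry1, a Sprouty protein that also keeps muscle satellite cells quiescent, lies on the plus strand of chromosome 3 (chr3:37694096-37698747, 3 exons). Spry1 ran from 5.71 to 9.12 FPKM in LD (median 6.85) and from 6.11 to 9.95 FPKM in ADV (median 7.44). Its log2 fold change was 0.07 (95% interval -0.07 to 0.20, edgeR FDR 0.511). Spry2, the Sprouty protein of the minus strand of chromosome 14 (chr14:106129381-106134253, 2 exons), was at 3.07 to 4.83 FPKM in LD (median 4.12) and 3.68 to 6.04 FPKM in ADV (median 4.41). For Spry2, 13 of 16 ADV mice exceeded the LD median, but the ranges overlapped over most of their length. Its log2 fold change was 0.12 (95% interval -0.01 to 0.24, edgeR FDR 0.195). Spred1, which recruits neurofibromin to Ras, lies on the plus strand of chromosome 2 (chr2:116951855-117012760, 7 exons). Spred1 was at 1.06 to 1.68 FPKM in LD (median 1.29) and 0.636 to 1.63 FPKM in ADV (median 1.29). It was the only member with a negative log2 fold change, -0.10 (95% interval -0.29 to 0.08, edgeR FDR 0.448). The lowest ADV value was that of mouse 34, and without that mouse the log2 fold change was -0.06.

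Single mice were extreme for several members at once. ADV mouse 24 had the highest value of the ADV group for Dusp1 (54.4 FPKM), Dusp6 (4.79 FPKM), Spry1 (9.95 FPKM) and Spred1 (1.63 FPKM). ADV mouse 28 had the highest value for Dusp5 (0.980 FPKM), Dusp10 (13.8 FPKM) and Spry2 (6.04 FPKM). ADV mouse 34 had the lowest value for Dusp6 (2.91 FPKM), Dusp16 (4.41 FPKM) and Spred1 (0.636 FPKM). ADV mouse 30 had the lowest for Dusp1 (18.3 FPKM), Dusp5 (0.117 FPKM) and Dusp10 (4.42 FPKM) and the highest for Dusp4 (1.20 FPKM). In the LD group, mouse 31 was highest for Dusp1 (37.5 FPKM) and Dusp10 (14.1 FPKM) and lowest for Dusp4 (0.325 FPKM) and Dusp6 (2.70 FPKM). LD mouse 27 was lowest for Dusp1 (11.04 FPKM) and Dusp16 (4.09 FPKM) and highest for Spry2 (4.83 FPKM). Other mice were extreme for several members as well. Over the 30 libraries, centred within group, the Spearman correlation of the log2 level between members ran from -0.27 to 0.73 with a median of 0.08 over 45 pairs. The 4 pairs above 0.5 were Dusp8 with Dusp16 (0.73), Dusp10 with Spry2 (0.62), Dusp1 with Dusp8 (0.62) and Dusp1 with Dusp16 (0.57). Dusp1, Dusp8 and Dusp16 thus formed 3 of these 4 pairs, all of them within groups. Pairs of values from 1 library share its depth and normalization, and these correlations are descriptions.

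To relate the members to recent signaling, each was set against Fos within the groups, so that a difference between group means could not produce a relation. Fos, on chromosome 12 (chr12:85520664-85524047, plus strand, 4 exons), ran from 0.660 to 4.57 FPKM in LD (median 1.91) and from 1.61 to 41.5 FPKM in ADV (median 4.10). It was 2.01 higher on the log2 scale in ADV (standard error 0.46, edgeR FDR 0.00687), and the ADV group was far more spread. Slopes were fitted in edgeR as the log2 change of a gene per log2 unit of Fos, with levels as reads of a gene scaled to the library total (CPM), and 20 relations, 10 genes in each of the groups, were examined.

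In the LD group edgeR called a slope on Fos in 0% of 12029 genes and in 0 of the members, with an unadjusted p under 0.05 in 886 genes (7.37%) and in 1 member, Dusp1. The slope of Dusp1 was 0.51 (standard error 0.13, 95% interval 0.24 to 0.78, edgeR FDR 0.618). Pearson's r between Dusp1 and Fos was 0.73 (permutation p = 0.0025, n = 14) and Spearman's rho was 0.77 (permutation p = 0.0019). Leaving out LD mice 23 and 31, which were farthest from the median in Fos, r was 0.66. Dusp5 had a similar correlation, with r = 0.76 (permutation p = 0.0016) and rho = 0.74 (permutation p = 0.0039), and r was 0.65 without the same mice. Its slope was 0.56, with a 95% interval from -0.00 to 1.13 in the fit without a filter (edgeR FDR 0.702). The other members had r between -0.15 and 0.46 in LD, with permutation p from 0.0995 upwards. Spry1, with r = 0.46 and rho = 0.18, was the highest of these. LD mouse 23, with the lowest Fos of all, and LD mouse 31 weighed on several of these values, and without both r was 0.63 for Dusp8 (0.15 with them), 0.72 for Dusp16 (0.41), 0.73 for Spry1 (0.46) and -0.55 for Dusp10 (-0.15).

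In the ADV group edgeR called a slope on Fos in 0.274% of the genes, 33 in all, and in 0 of the members. An unadjusted p under 0.05 was found in 671 genes (5.58%) and in 3 members, Dusp1, Dusp8 and Dusp16. The slope of Dusp1 was 0.18 (standard error 0.06, 95% interval 0.05 to 0.31, edgeR FDR 0.480). Its r with Fos was 0.60 (permutation p = 0.0123, n = 16) and its rho 0.59 (permutation p = 0.0176). Without ADV mice 25 and 29, the highest in Fos, r was 0.45. For Dusp8, r was 0.51 (permutation p = 0.0439) and rho 0.52 (permutation p = 0.0409), with a slope of 0.09 (edgeR FDR 0.808), but r was 0.17 without the same mice, so the linear relation rested on them. For Dusp16, r was 0.46 (permutation p = 0.0770) and rho 0.51 (permutation p = 0.0472), with a slope of 0.07 (edgeR FDR 0.768), and r was 0.37 without these mice. Dusp5 had r = 0.35 (permutation p = 0.181) in ADV and r = -0.04 without the 2 mice.

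**Figure D3:**
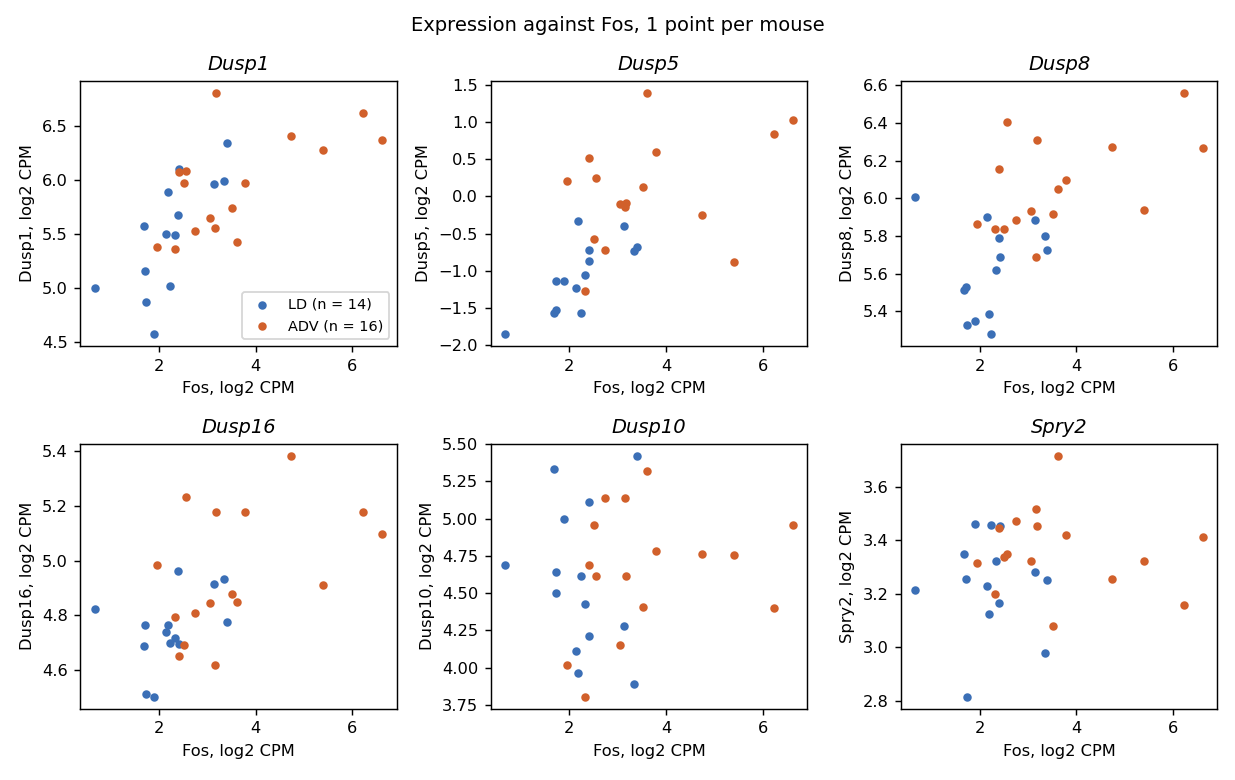
Log2 CPM of 6 members (vertical axes) against log2 CPM of Fos (horizontal axes), 1 point per mouse, LD in blue (n = 14) and ADV in orange (n = 16). Dusp1 and Dusp5 climb with Fos among the LD points. For Dusp10 and Spry2 the 95% interval of the slope from edgeR includes 0 in both groups.

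The difference between the ADV and the LD slope was called by edgeR in 0% of the genes. An unadjusted p under 0.05 was found in 772 genes (6.42%) and in 1 member, Dusp1, whose slope was lower in ADV by -0.33 (95% interval -0.63 to -0.02, edgeR FDR 0.734). A difference between the groups in the relation to Fos was therefore not shown for any member. Fos covered 0.67 to 3.40 on the log2 CPM scale in LD and 1.95 to 6.62 in ADV, so the slopes were measured over different stretches of its range.

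**Figure D4:**
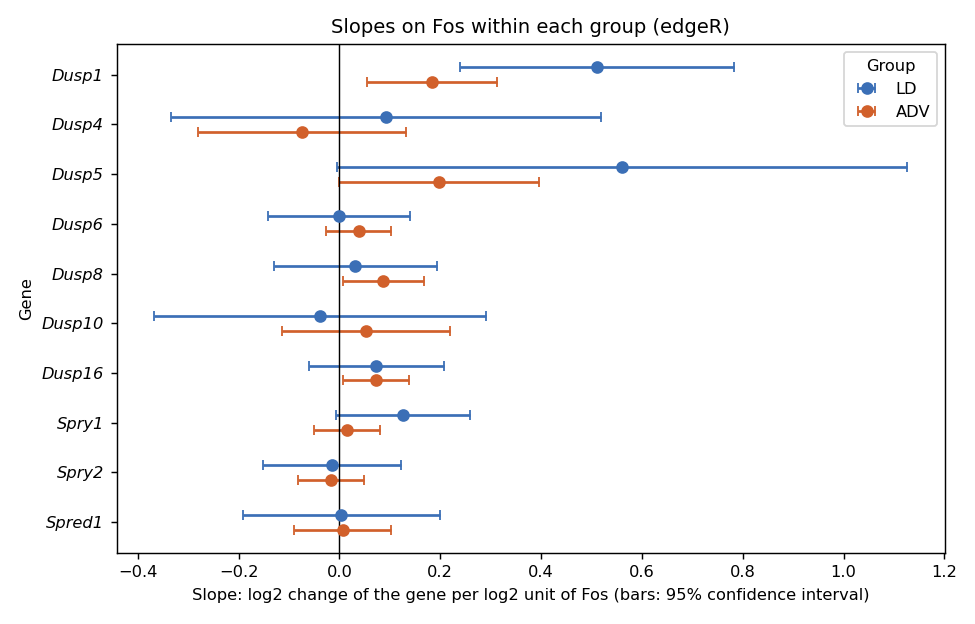
Slope of each member on Fos within LD (blue) and ADV (orange), as the log2 change of the gene per log2 unit of Fos with its 95% confidence interval from edgeR. The intervals of Dusp1 lie above 0 in both groups, and those of Dusp8 and Dusp16 lie above 0 in ADV only. Those of Dusp4, Dusp5, Dusp6, Dusp10, Spry1, Spry2 and Spred1 include 0 in both.

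The calls depended on which immediate early gene was taken as the measure, while the ADV slopes of Dusp1, Dusp8 and Dusp16 were of similar size. A difference between the measures was not tested. With Atf3 in place of Fos, edgeR called a slope in 1.35% of the genes in the ADV group, 162 in all, and 3 members were among them. The slope was 0.22 for Dusp1 (edgeR FDR 0.0270), 0.12 for Dusp8 (edgeR FDR 0.0438) and 0.09 for Dusp16 (edgeR FDR 0.0409). In the LD group the Dusp1 slope on Atf3 was 0.33 (edgeR FDR 0.427), the lowest FDR of the members there. With Egr1 in place of Fos, the slope in ADV was 0.16 for Dusp1 (edgeR FDR 0.879), 0.10 for Dusp8 and 0.07 for Dusp16. The members' edgeR FDRs with Egr1 were 0.817 or higher in both groups. Atf3 encodes a stress-induced factor of the ATF/CREB family, and Egr1 is, like Fos, an immediate early gene.

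The genes whose within-group pattern was most like that of each member were taken from all tested genes by Spearman's rho over the 30 libraries. Genes picked as the highest of all cannot fall below Fos, so the value of Fos beside them is only a description. For Dusp1 they were the chaperone genes Dnajb4 (0.83) and Dnaja4 (0.79) and the muscle LIM protein gene Csrp3 (0.81), against 0.62 for Fos. For Dusp8 they were Creld2 (0.81), a gene of the endoplasmic reticulum, Samd1 (0.79) and the inducible HSP70 gene Hspa1b (0.78), against 0.33 for Fos. For Dusp16 they were the amino acid transporter gene Slc38a2 (0.86), Zfp568 (0.84) and Rbm14 (0.82), against 0.46 for Fos.

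Most members without a called difference had other neighbours. Spry2 was nearest to the ETS factor gene Ets2 (0.76), then to Cd247 (0.70) and Kcnj8 (0.68). Dusp10 was nearest to Cdc42ep3 (0.76), Hhex (0.64) and Trim16 (0.64). Spred1 was nearest to Dusp11 (0.78), Pla2g4a (0.78) and Mtpn (0.77). Dusp6 had no close neighbour, with 3425401B19Rik (0.61), Hif1a (0.58) and Snx4 (0.58) at the top, and Dusp4 had Gm29427 (0.70), Fbn1 (0.69) and Thpo (0.68). The correlation with Fos was between -0.04 and 0.21 for these 5 members.

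The rest of the pathway was taken as 9 lists of 138 genes, of which 116 were tested. edgeR called 26 of these, 17 higher and 9 lower in ADV (22.4%, against 10.9% of all genes), and the median log2 fold change was 0.03. This count was 16 with the GC content offset, 1 with the exon share and 0 with the clock score as a covariate, so the rises and falls given here hold without these terms. The calls were unevenly spread over the lists, with 13 of the 17 higher genes among the immediate early genes. The lists were chosen with earlier results of these data known, so setting 22.4% against 10.9% does not test an enrichment.

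The other dual-specificity phosphatases of the lists held no called gene, and Dusp2, Dusp9, Dusp15 and Dusp21 were too low to test. Of these, Dusp15 was at 0.316 ± 0.136 FPKM in LD and 0.542 ± 0.337 FPKM in ADV. Dusp2 was at 0.447 ± 0.177 FPKM in LD and 0.452 ± 0.144 FPKM in ADV. Dusp9 had means of 0.022 FPKM in LD and 0.021 FPKM in ADV, and Dusp21 was at 0 in all libraries. Among the other MAPK phosphatases only Dusp7, a cytoplasmic relative of Dusp6, was tested, at 4.59 ± 1.95 FPKM in LD and 4.40 ± 2.12 FPKM in ADV (edgeR FDR 0.851). Of 13 further dual-specificity phosphatases 0 were called by edgeR, DESeq2 or limma, with an unadjusted p under 0.05 for 5 in edgeR. Those with the smallest p were Dusp11 with a log2 fold change of -0.09 (edgeR FDR 0.108), Dusp14 with -0.32 (edgeR FDR 0.114) and Dusp12 with -0.17 (edgeR FDR 0.128). The list as a whole went both ways, with 7 of the 13 higher in ADV and a median log2 fold change of 0.03. Of 9 other feedback inhibitors 1 was called, Spry4, a Sprouty gene at 0.820 ± 0.168 FPKM in LD and 1.09 ± 0.270 FPKM in ADV. Spry4 rose by 0.38 on the log2 scale (edgeR FDR 0.0278), unlike the values of 0.07 for Spry1 and 0.12 for Spry2, although the difference between these genes was not tested. Pebp1, the Raf kinase inhibitor protein gene, had 0.09 (edgeR FDR 0.117), and Errfi1, an inhibitor of the EGF receptor, had 0.24 (edgeR FDR 0.193).

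The kinases and receptors that these proteins restrain moved little, and those called were lower. In the ERK cascade 3 of 18 genes fell by edgeR's test: Nras, a Ras protein, by 0.19 (FDR 0.0327), and the Ras exchange factors Sos2 by 0.17 (FDR 0.0387) and Sos1 by 0.20 (FDR 0.0432). In the p38 and JNK cascades 3 of 14 fell: the kinase kinases Map2k4 by 0.13 (edgeR FDR 0.00679) and Map2k6 by 0.26 (edgeR FDR 0.0204), and Mapk9, which encodes JNK2, by 0.16 (edgeR FDR 0.00869). Among the receptors 3 of 15 fell: Pdgfra by 0.24 (edgeR FDR 0.0198), Fgfr1 by 0.22 (edgeR FDR 0.0240) and Igf1r by 0.29 (edgeR FDR 0.0413). Each of these falls was smaller than 1.3-fold. Over all 12030 genes, edgeR called 10.9% in either direction. An unadjusted p under 0.05 in edgeR was found for 11 of the 18, 5 of the 14 and 4 of the 15 genes, and for 3615 of all 12030. The calls of Igf1r and Sos1 were lost in 16, that of Sos2 in 8 and that of Nras in 4 of the 30 fits that left out 1 mouse, with edgeR FDRs up to 0.0747.

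Ligands and transcriptional targets contributed 16 of the 17 higher genes. Over all 12030 genes, edgeR called 5.74% as higher in ADV. Of 14 growth factors 2 rose by edgeR's test, Hbegf, a ligand of the EGF receptor, by 0.67 (FDR 0.0244) and Vegfb by 0.21 (FDR 0.0428), the latter call being lost in 14 of the 30 fits that left out 1 mouse. Pdgfb had 0.30 (edgeR FDR 0.0977). Of 22 immediate early genes 13 were called higher, 22 had positive log2 fold changes and the median was 0.49. Among these, edgeR gave 2.43 for Atf3 (FDR 0.00341), 0.51 for Jun (FDR 0.00403) and 0.69 for Jund (FDR 0.00403), beside the value of Fos above. Of 10 ETS factors and delayed ERK targets 1 was called, Phlda1, which went from 1.86 ± 0.588 to 3.56 ± 1.14 FPKM (log2 fold change 0.91, edgeR FDR 0.00158). Elk1 had -0.14 (edgeR FDR 0.0630) and Elk4 -0.28 (edgeR FDR 0.0748).

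**Figure D5:**
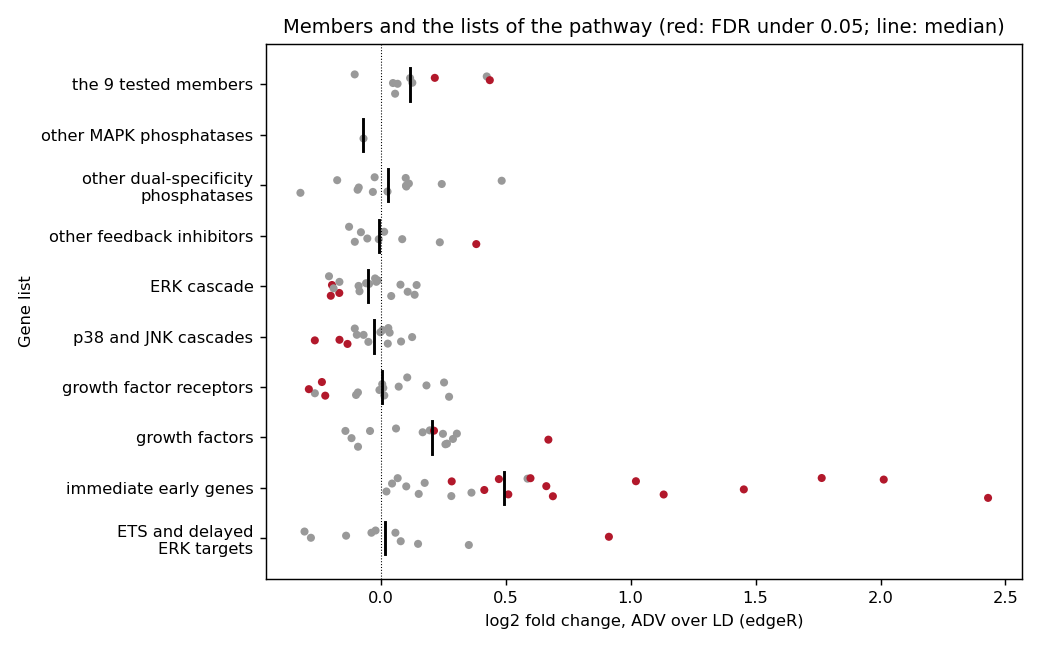
Log2 fold change of ADV over LD (horizontal axis) for the tested genes of each list, 1 point per gene, red with an edgeR FDR under 0.05, with a line at the median of the list. The immediate early genes reach furthest to the right, and the kinases and receptors lie near 0 with their called genes on the left.

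Markers of the other cells in the muscle were measured beside the members, and their part in the values above was not tested. Over all 12030 genes, edgeR called 10.9% in either direction, and 3615 had an unadjusted p under 0.05. Of 10 endothelial markers edgeR called 2 higher, Pecam1 and Emcn, and 8 had positive log2 fold changes (median 0.12). The summed level of the endothelial markers was 89.9 to 129 FPKM in LD and 105 to 141 FPKM in ADV. Of 7 fibroblast markers 1 was called lower, Pdgfra, and 1 had a positive log2 fold change (median -0.11), with sums of 321 to 398 FPKM in LD and 272 to 430 FPKM in ADV. Of 6 mural cell markers 1 was called higher, Tagln, while 5 had positive log2 fold changes (median 0.12), with sums of 86.5 to 129 FPKM in LD and 97.1 to 152 FPKM in ADV. Of 6 adipocyte markers 1 was called higher, Fabp4, while 6 had positive log2 fold changes (median 0.65), with sums of 176 to 368 FPKM in LD and 188 to 684 FPKM in ADV. edgeR called 0 of 6 slow fiber markers (0 with an unadjusted p under 0.05), although 6 had positive log2 fold changes (median 0.46), and their sums were 41.5 to 801 FPKM in LD and 177 to 1593 FPKM in ADV. edgeR called 0 of 5 Schwann cell markers (4 with an unadjusted p under 0.05, 2 called by DESeq2), of which 5 had positive log2 fold changes (median 0.44), with sums of 24.01 to 45.9 FPKM in LD and 26.02 to 80.03 FPKM in ADV. edgeR called 0 of 6 leukocyte markers (2 with an unadjusted p under 0.05), of which 1 had a positive log2 fold change (median -0.28), with sums of 48.5 to 122 FPKM in LD and 40.9 to 88.9 FPKM in ADV. edgeR called 0 of 2 satellite cell markers (0 with an unadjusted p under 0.05), and the sums of that list were 6.32 to 8.44 FPKM in LD and 6.25 to 9.42 FPKM in ADV. The satellite cell genes Pax7, Myf5 and Calcr were too low to test. No marker was at 0 in all libraries.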

How the data were processed

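Gastrocnemius RNA of 14 LD and 16 ADV mice was analysed from the deposited tables, with groups taken from the labels. After trimming by Trimmomatic, the authors aligned the reads to GRCm39 using STAR (2.7.10a per the submitters' processing notes), dropped alignments of low quality and counted the rest on the exons of UCSC known canonical transcripts with HOMER 4.11. The authors deposited estimated counts, in which each mate of a pair counts 0.5 read, so that 14.8% are not whole; they were rounded. The authors also deposited FPKM for the same 57186 rows, equal to the count divided by exon length and library total within 5.0e-04. All columns were used. The strand setting of the counting is not given in the sources used here.

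One row per symbol was kept. The filter (mean reads over 20, mean FPKM over 0.5) left the genes tested (12030, holding 99.7% of the counts kept). edgeR 4.0.16 in R 4.3.3 was used (quasi-likelihood F test, TMM normalization, FDR under 0.05 by the Benjamini-Hochberg method over every gene tested). Slopes on log2 CPM of Fos (prior count 2), centred within group, were fitted in 1 model with a slope per group. Single values used two-sided permutation tests with 100000 resamples (scipy 1.17.1). Between 18875468.5 and 28512674 read pairs per library were counted, and counting error is large for genes near 20 reads. P-values measure the spread between mice. No 2 libraries of a group agreed within sampling noise (smallest chi-square per degree of freedom 10.6).

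The members and lists were chosen with earlier results of these data known. Named were the 10 members, Fos, the 3 genes with the smallest p in each pathway list and the 3 genes most like each member; marker and covarying lists are given by counts and summed levels, the clock lists by counts and a score. Egr1 and Atf3 appear as alternatives to Fos, and further genes of marker lists were named after their values were seen, where they were the only calls. Promoters were read from GRCm39 at the GENCODE vM39 starts.

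Alternatives were DESeq2 1.42.0, limma 3.58.1 on log2(FPKM + 0.1) and log2(FPKM + 1), the Wilcoxon test, DESeq2's size factors, library size alone, other filters, counts summed over rows, a GC content offset (99.9% of genes tested had a value), the clock score or the exon share as a covariate, the label number as a block, Egr1 or Atf3 in place of Fos, and leaving out each library. Leaving out the 3 libraries least like the others, the fit of 28 libraries without the block and the slope on the clock score were added after seeing the data. The label numbers were not taken as pairs in the main test. The scripts were tested on simulated data. The genes most like 1 member are not reported here. Glucocorticoid targets were also measured, with 1 of 11 called (Cdkn1a, higher) and summed levels of 195 to 485 FPKM in LD and 204 to 486 FPKM in ADV.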

Additional observations from a re-analysis of the deposited data

Results flagged for a closer look

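Dusp5 had a log2 fold change of 1.37 in ADV over LD in the edgeR fit without a filter on low values (FDR 0.00238), although it was left out of the 12030 genes tested because its mean of 17.1 reads fell under the limit of 20. It stands out as a signal in data that the main comparison did not use. The part of reads from the overlapping gene of the other strand was not tested.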

How the results depend on the processing

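Of the 9 members tested, 2 were called. edgeR called 0 with the clock score covariate and 0 with the exon share covariate, and 1, Dusp8, without the 3 libraries least like the others, in the 28 libraries with shared numbers and with the required fold change over 1.3; the Wilcoxon test on FPKM called 1. Leaving out 1 library gave 1 to 3. DESeq2, limma and the other normalizations, the GC content offset and counts summed over rows called 2. Dusp16 had an edgeR FDR of 0.0803 with no filter on low genes and 0.0563 by the Wilcoxon test. Of the pathway genes, 26 were called. edgeR called 16 with the GC content offset, 0 with the clock score covariate, 1 with the exon share covariate, 13 in the 28 libraries, 17 without the 3 libraries and 15 with a fold change over 1.3, and leaving out 1 library gave 18 to 28. Over all genes, 1306 were called in the main setting, 599 with the GC content offset and 1677 by DESeq2. The block was fitted on the 28 libraries with shared numbers only, and 491 genes were called with it, against 613 in the same libraries without it. Of the calls in the main setting, 52.8% were higher in ADV, against 62.3% with library size alone and 65.7% by limma on log2(FPKM + 0.1).

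The label numbers that LD and ADV mice share were not taken as pairs in the main test. The deviations of same-numbered mice correlated between -0.26 and 0.43 over 14 pairs, 6 of them over 0.1, and 3 LD libraries were closest to their own number. Whether the numbers mark a shared batch or order was not tested. With the replicate block, fitted on the 28 libraries with shared numbers, edgeR called 1 member, Dusp8, at 0.38 (FDR 0.0289). It called 9 pathway genes, against 13 in the same libraries without the block. With the block Dusp16 had 0.17 (FDR 0.139), and 0 members had a called slope on Fos.

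Slopes of the members on Fos were called 0 times in each group in edgeR. The unadjusted Spearman test gave 2 in LD and 3 in ADV, and Atf3 in place of Fos gave 3 in ADV; leaving out 1 library gave 0. Signs turned under some alternatives. Log2 fold changes turned for Dusp4 (-0.042 by the Wilcoxon test, from medians), Spry1 (-0.0098 with the GC offset and -0.0021 with the clock score), Spred1 (0.14 with the exon share), Dusp7 (0.31 with the clock score), Pebp1 (-0.0064 with the exon share) and Elk4 (0.041 with the exon share). With Egr1, slopes turned to 0.017 for Dusp4 in ADV and -0.011 for Spred1 in ADV and, in LD, to 0.12 for Dusp6, -0.19 for Dusp8, 0.40 for Dusp10, -0.016 for Dusp16 and 0.16 for Spry2. With the clock score, LD slopes turned to 0.010 for Dusp6, -0.0029 for Dusp8, 0.0089 for Dusp10 and -0.0031 for Spred1. Other turns were Dusp6 in LD at 0.0015 with filterByExpr, 0.0061 with the exon share and 0.016 with the replicate block, Spry2 in ADV at 0.0039 in the 28 libraries, and Spred1 at -0.013 in LD with the GC offset and, without the 3 libraries, at -0.00094 in LD and -0.018 in ADV. Leaving out 1 library, log2 fold changes spanned 0 for Dusp10 (-0.0071 to 0.13) and Dusp7 (-0.21 to 0.028), and so did slopes in LD for Dusp10 (-0.33 to 0.067), Dusp4 (-0.048 to 0.24), Dusp6 (-0.11 to 0.076), Dusp8 (-0.0010 to 0.22), Spred1 (-0.031 to 0.044) and Spry2 (-0.047 to 0.036), and in ADV for Spred1 (-0.025 to 0.056), Spry1 (-0.00055 to 0.026) and Spry2 (-0.032 to 0.0029). The causes were not tested.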

Other observations

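The 4 genes with the smallest FDRs for a slope on Fos within the ADV group had edgeR slopes of 0.77 for Egr1 (FDR 1.3e-10), 0.65 for Dnajb1 (FDR 1.5e-05), 0.32 for Ier5 (FDR 6.2e-05) and 0.47 for Btg2 (FDR 6.2e-05), against 0.18 for Dusp1. These were named after their values were seen.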
